A study of Mus musculus with 12 samples.

Results

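The 3 vehicle-treated SVR tumors of a series of 12 tumors were described on their own, without a contrast to the drug-treated groups. They were chosen by their treatment label, and 3 of the 12 samples carried it. SVR is a mouse angiosarcoma cell line, made by introducing oncogenic H-ras into an immortalized endothelial line of pancreatic islets. In the study, 20000 SVR cells per mouse were injected subcutaneously in the flank of athymic nude mice aged 8 to 12 weeks, while the sample labels give the strain as C57BL/6. The vehicle was 10% cremaphor, 10% polyethylene glycol (PEG400) and 1% tween, given by oral gavage each day, with no trametinib and no cediranib. Tumors were left to establish for 3 to 7 days before dosing. The methods set ulceration or a size above 1 cm as the end of dosing. The paper also describes treatment experiments that ended at different points. Which of them gave these tumors, and thus the length of dosing, is not given. RNA came from lysate of the whole tumor, so reads of tumor cells, host stroma and adjacent tissue were pooled, and because the injected line and the host are both mouse they cannot be separated by sequence. The tumors grew from 1 cell line, and host athymic mice lack a thymus and thereby most T cells. The 3 tumors are called control replicate 1, 2 and 3 below, and nothing in the labels orders them.

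Endothelial cells line blood and lymphatic vessels. They hold together through VE-cadherin (Cdh5) and Pecam1, and they read growth signals through receptor tyrosine kinases, among them the VEGF receptors Flt1, Kdr and Flt4 and the angiopoietin receptors Tie1 and Tek. Angiosarcoma is a malignancy of this cell type. The RAS to ERK cascade, which oncogenic H-ras switches on, relays signals from these receptors to the nucleus and induces its own inhibitors such as the Sprouty and DUSP genes.

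The libraries held 11571487, 10220176 and 10477699 counts on genes in replicates 1, 2 and 3. Levels are given as TPM, the transcripts of a gene among all transcripts on a fixed scale, computed in each tumor from the counts and the gene length in the deposited table, so that genes can be compared per length. Of 54232 genes in the table, 22310 had a count in at least 1 tumor and 10519 reached 1 TPM in all 3, including 8737 of the 21983 protein coding genes. Another 6875 protein coding genes had 0 counts in all 3 tumors. A count of 0 allows a level of up to 3 counts, between 0.259 and 0.294 CPM, which is the count scaled by the library total, in these libraries, a limit that covers counting error only. The methods give RNA degradation in the tumors as the reason for using exome probes, and no measure of it per tumor is among the files used here. The probes pulled the RNA down ahead of sequencing, so levels also depend on how well each gene was captured, and the part of capture in the levels was not tested. B2m, which nearly every cell expresses, was at 6.10, 3.71 and 3.87 TPM.

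Tumors were compared through the ratio of the highest to the lowest tumor on TMM-scaled CPM with a prior count of 2, for the 10740 genes with a mean of at least 1 TPM and at least 30 counts in all. A ratio of at least 2 was counted as a difference between tumors. It was a description of 3 tumors and not a test, and since the filter works on the mean, a gene high in 1 tumor can pass it through that tumor. The median ratio was 1.34, and 1394 of the 10740 genes, or 13.0%, were past 2. Those genes were highest in replicate 1 in 450 cases (4.19% of the genes tested), in replicate 2 in 386 (3.59%) and in replicate 3 in 558 (5.20%). Between pairs of tumors 711 genes were past 2 for replicates 1 and 2, 870 for 1 and 3 and 704 for 2 and 3. The biological coefficient of variation, which is the spread between tumors beyond counting error, was 29.1%. Whether a lower level came from fewer cells of a type or from less RNA per cell cannot be told apart in lysates of whole tumors.

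**Figure D1:**
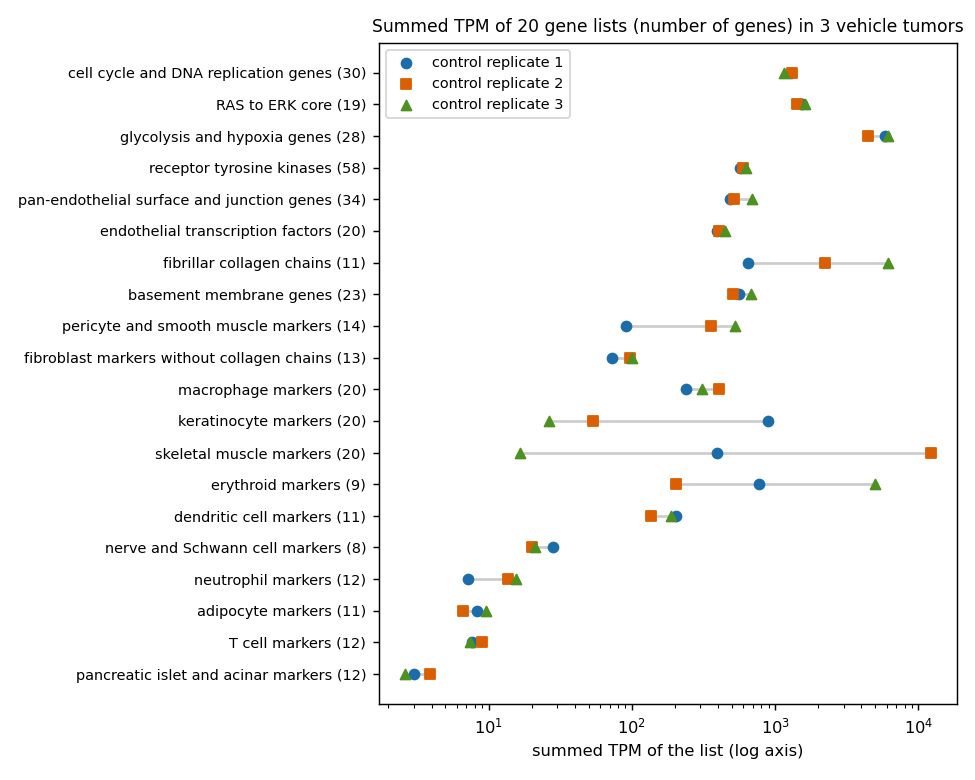
Summed TPM (log axis) of 20 gene lists in the 3 vehicle tumors, with 1 point per tumor, a grey line from the lowest to the highest tumor and the number of genes in brackets. The cell cycle, RAS to ERK and receptor lists sit within narrow ranges, whereas skeletal muscle markers run from 16.6 in replicate 3 to 12260 in replicate 2.

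The most abundant RNA was that of beta-actin (Actb), a cytoskeletal protein of all cells, at 41930, 49050 and 57300 TPM. Both cytoplasmic actins together took 6.54% of the counts on average, and near-identical coding sequences could exchange reads between them. Genes annotated as microRNA held 1.21% of the counts but 21.8% of the TPM. Of the 30 genes with the highest mean TPM, these were short loci such as Gm44492 (28960 to 37920 TPM), which overlaps the histone gene Hist2h2ac on the other strand, Gm23419 within Actg1 and Gm27597 within Rpl19. Histone genes, many of them near-identical copies, held 15.6% of the TPM. Hist2h2bb, at 32930, 43280 and 21740 TPM, was the highest of them and overlaps Gm42743 on the same strand. The 4 ribosomal RNA loci, counting those that overlap them, took 3.38% of the counts.

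Among protein coding genes other than histones, Actb was followed by Fth1, the heavy chain of the iron store ferritin, at 12460, 8994 and 14300 TPM. The 30 highest included ribosomal and translation genes such as Rpl32, Rps15, Rplp0 and Eef1a1, the tubulin Tubb5 (3539, 3214 and 3591 TPM) and the calcium-binding proteins S100a4 and S100a6. S100a4, at 3109, 4532 and 2664 TPM, shares exons with Gm42674 on the same strand, so its share of those reads is uncertain. Vim, the intermediate filament of mesenchymal and endothelial cells, stood at 3732, 2193 and 3396 TPM. The glycolytic enzyme Pkm was at 2097, 1815 and 2299 TPM. Only Col1a1 and the muscle actin Acta1 among these 30 genes were more than 5 times higher in 1 tumor than in another.

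Endothelial identity was seen in part of the genes listed for it. Of 34 surface and junction genes of endothelium, 24 reached a mean of 1 TPM and all 34 had at least 1 count. Their summed level was 482, 519 and 693 TPM (565 ± 112, SD, n = 3). The label of an endothelial tumor was checked on 3 markers, of which Cdh5 was clearly detected while Pecam1 and Kdr were low.

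Cdh5 (ENSMUSG00000031871, GRCm38 chromosome 8, 104101625 to 104144511), the adhesion protein of endothelial junctions, had 532, 545 and 1192 counts. That was 23.7, 27.6 and 59.0 TPM, with replicate 3 the highest, and its mean of 36.8 ± 19.4 TPM (SD, n = 3) ranked 2053rd among protein coding genes. Pecam1, another junction protein and a common histological marker of endothelium, had only 54, 31 and 41 counts, or 1.63, 1.06 and 1.37 TPM. Cdh5 was 14.6, 26.1 and 43.1 times as high as Pecam1 in the 3 tumors. Pecam1 did not follow Cdh5 upward in replicate 3.

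The highest mean of the 34 genes was that of Nos3, the endothelial nitric oxide synthase, at 111, 76.8 and 150.0 TPM. Its exons overlap Atg9b on the other strand, and since no source used here gives the strand setting of the counting, their reads cannot be told apart. Tm4sf1, a tetraspanin-like protein of vascular and tumor cell membranes, followed at 101, 122 and 92.8 TPM and was above Nos3 in replicate 2. S1pr1, the sphingosine 1-phosphate receptor that keeps vessels tight, was at 43.4, 50.96 and 93.4 TPM, again highest in replicate 3. The TGF-beta co-receptor Eng, at 24.5, 31.8 and 33.8 TPM, and the CGRP and adrenomedullin receptor subunit Ramp2, at 25.1, 26.5 and 31.2 TPM, differed less between tumors, with ratios of 1.46 and 1.32. The podocalyxin gene Podxl, with 19.2, 19.8 and 18.1 TPM, and Cd34, with 10.5, 10.5 and 9.80 TPM, were the most even at ratios of 1.08 and 1.06.

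Other genes that usually mark endothelium were near the floor. Vwf, the clotting factor stored in endothelial granules, lay between 0.502 and 1.89 TPM, and the tight junction gene Cldn5 between 0.794 and 1.76 TPM. Egfl7, Icam2 and Emcn did not reach 1 TPM in any tumor, and Clec14a had 1 count in all. The adhesion genes of activated endothelium were low as well, with Vcam1 at 9.99, 8.23 and 6.83 TPM and Icam1 and Sele under 1 TPM.

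**Figure D2:**
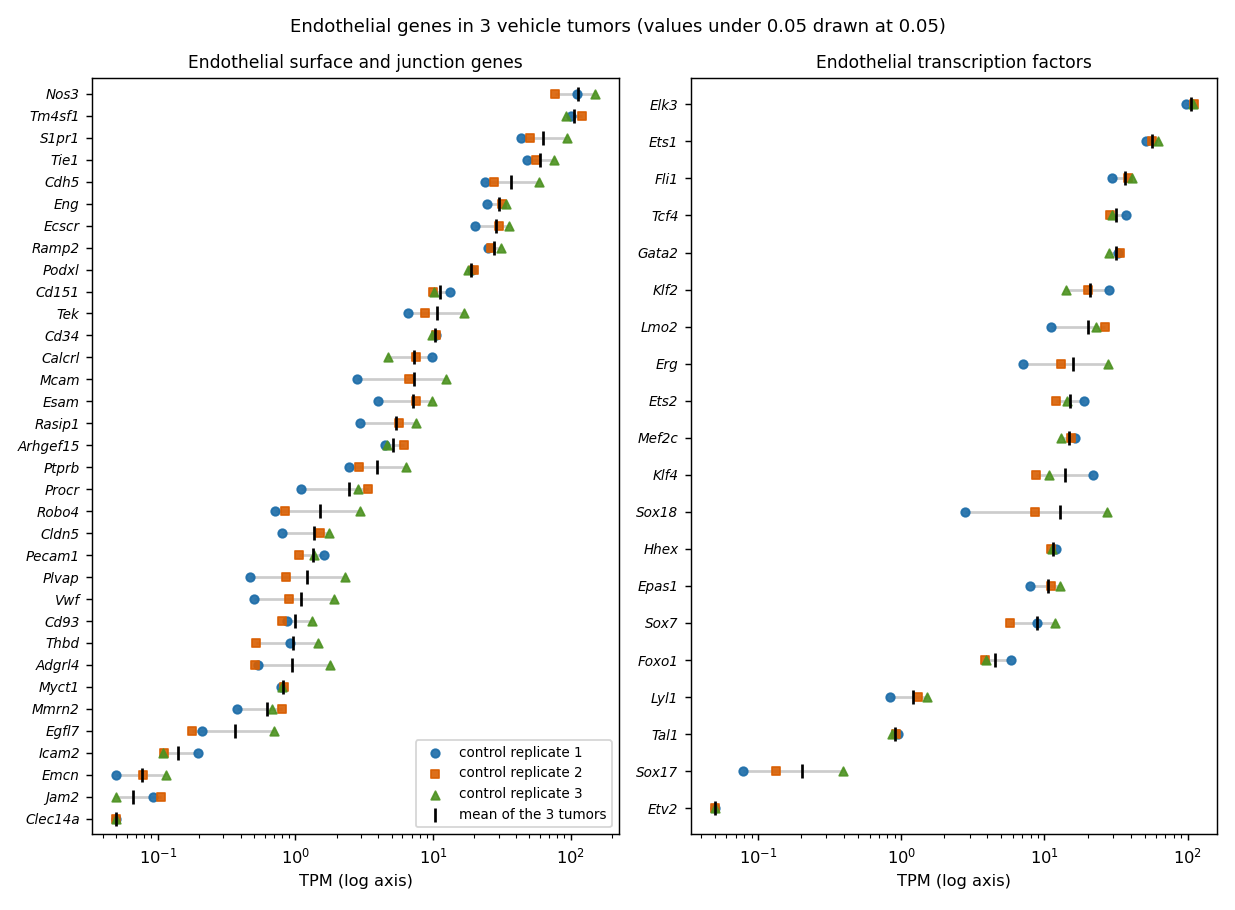
TPM (log axis) of 34 endothelial surface and junction genes (left) and 20 endothelial transcription factors (right) in the 3 vehicle tumors, ordered by mean, with 1 point per tumor, a black tick at the mean and a grey line over the range. Nos3 and Tm4sf1 are near 100 TPM and Pecam1 near 1 TPM, and the points of Cdh5, Erg and Sox18 are highest in replicate 3.

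Transcription factors that direct endothelial genes summed to 390.0, 406 and 443 TPM over 20 genes, of which 17 reached 1 TPM. The ETS factors led them. Elk3 was at 96.9, 110.0 and 109.9 TPM, Ets1 at 51.3, 56.3 and 61.6 TPM and Fli1 at 29.5, 38.6 and 41.1 TPM, all with ratios under 1.5. The ETS factor Erg, a core regulator of endothelial identity, had lower levels of 7.05, 13.1 and 27.7 TPM and a ratio of 4.08. Sox18, a factor of vessel and lymphatic development, was at 2.78, 8.54 and 27.4 TPM, the widest spread of the list at 9.65. Erg and Sox18 were thus lowest in replicate 1 and highest in replicate 3, as Cdh5 was. Gata2 was even at 32.6, 33.9 and 28.2 TPM, while the flow-induced factors Klf2 (28.3, 20.3 and 14.1 TPM) and Klf4 (22, 8.73 and 10.7 TPM) were both highest in replicate 1. Etv2, which starts the endothelial programme in the embryo, had 0 counts.

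Venous and arterial genes were both present. The 6 venous genes summed to 136, 115 and 103 TPM and the 13 arterial genes to 96.1, 105 and 138 TPM, so the order of these sums was not the same in all tumors. Nr2f2, the factor that sets venous identity, was at 70.9, 53.02 and 44.4 TPM, and the arterial ligand Efnb2 at 15.7, 19.4 and 19.7 TPM. Nr2f2 was 4.52, 2.74 and 2.25 times as high as Efnb2. The venous receptor Ephb4, the partner of Efnb2, was at 13.7, 14.5 and 21.1 TPM. Of the arterial genes, Notch1 (15.3, 12.8 and 19.4 TPM) and Jag1 (14.7, 13.6 and 22.5 TPM) were present, but the arterial Notch target Hey2 had 0 counts and its ligand Dll4 was at 1.36, 2.54 and 8.38 TPM. Lymphatic identity was hardly seen, since Prox1, Ccl21a and Mmrn1 had 0 counts, Lyve1 was under 1 TPM in every tumor and the lymphatic VEGF receptor Flt4 was at 1.047, 1.35 and 3.59 TPM. Of the genes of sprouting tip cells, Esm1 and Angpt2 were under 1 TPM and Apln was at 2.98, 2.16 and 5.09 TPM, while the chemokine receptor Cxcr4 was at 15.8, 11.1 and 18.7 TPM and Igfbp3 at 12.7, 22.2 and 27.3 TPM. The capillary genes Gpihbp1 and Car4 and the brain vessel transporter Slco1a4 had 0 counts.

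Taking the endothelial lists and the VEGF receptors as 1 set, 105 genes were in the table, 9 of them at 0 counts, and 68 passed the filter. Of these 68, 28 (41.2%) were past a ratio of 2, against 13.0% of all genes tested. Replicate 3 was the highest in 21 of the 28 (30.9% of the 68, against 5.20% of all genes tested), replicate 2 in 5 and replicate 1 in 2. Past 2 and lowest in replicate 1 were 22 of the 68, against 5.42% of all genes tested. Between pairs of tumors, each pair scaled on its own, 11 of the 68 were past 2 for replicates 1 and 2, against 6.65% of all genes tested. For replicates 2 and 3 there were 16 of the 68, against 6.47%, and for replicates 1 and 3 there were 22, against 8.16%. The other 40 of the 68 included 24 with a ratio under 1.5, such as Tm4sf1, Eng, Podxl, Elk3 and Fli1. Collagen and erythroid levels described below were also highest in replicate 3, and their part in these differences was not tested.

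Receptor tyrosine kinases were measured for 58 genes, and their sum lay in a narrow range, at 568, 594 and 628 TPM (596 ± 29.7, SD, n = 3). Only 4 receptors had a mean of at least 50 TPM, 15 of at least 5 TPM and 30 of at least 1 TPM, and 5 had 0 counts, namely Erbb4, Epha10, Ltk, Ros1 and Epha6. The single receptors varied more than their sum, since 10 of the 30 from 1 TPM up (33.3%, against 13.0% of all genes) were past a ratio of 2. Past 2 and highest in replicate 3 were 8 of the 30, against 5.20% of all genes tested. The receptors at the top were not those of VEGF.

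Axl, the receptor of the growth arrest protein Gas6, led the order with 96.3, 106 and 99.4 TPM and varied little between tumors. Fgfr1, a receptor of fibroblast growth factors, had 112, 75.1 and 93.3 TPM and overlapped it. The angiopoietin receptor family member Tie1 followed at 48.4, 55.9 and 75.9 TPM, with all 3 values below those of Axl. Epha2, a receptor of ephrin-A ligands that ERK signaling induces, was at 55.4, 54.7 and 60.8 TPM, inside the range of Tie1. Csf1r, the receptor of macrophages, was at 30.5, 64.8 and 50.3 TPM and lowest in replicate 1. Next came the collagen receptor Ddr2 (27.6 to 52.4 TPM), the WNT co-receptors Ryk (32.8 to 38.0 TPM) and Ptk7 (29.2 to 38.7 TPM), and then Igf1r (15.3 to 25.5 TPM). Each neighbour in the order of the 15 receptors from 5 TPM up overlapped the next over the 3 tumors in 13 of 14 pairs, the exception being Ptk7 above Igf1r.

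**Figure D3:**
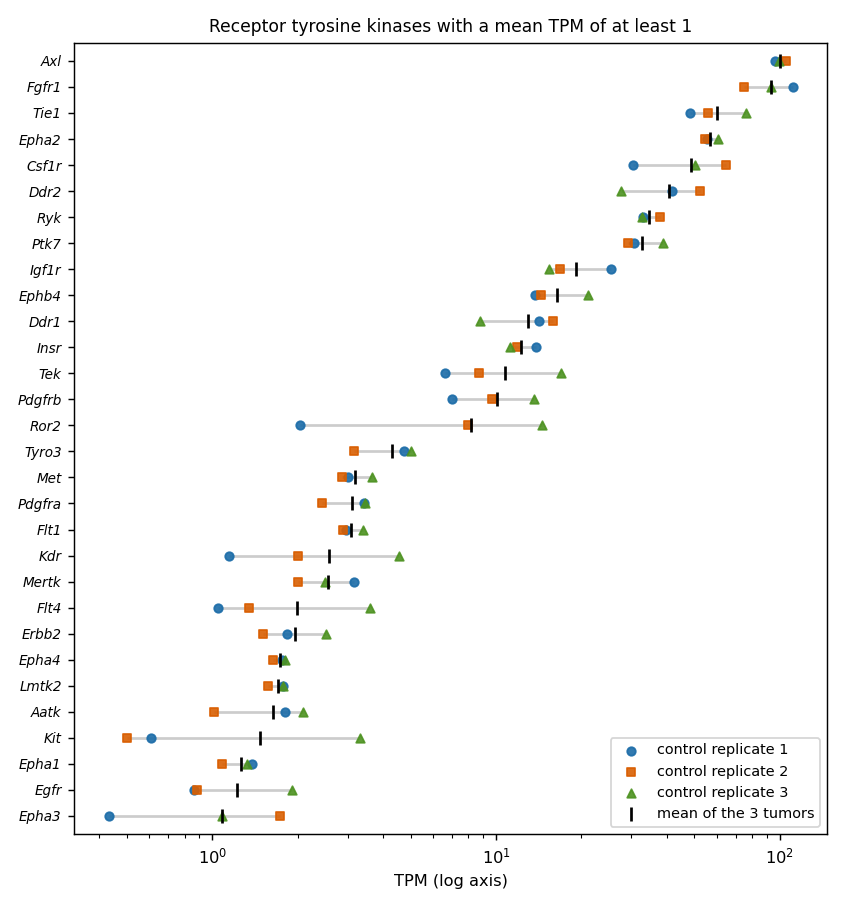
TPM (log axis) of the 30 receptor tyrosine kinases with a mean of at least 1 TPM, ordered by mean, with 1 point per vehicle tumor, a black tick at the mean and a grey line over the range. Axl and Fgfr1 are near 100 TPM, Flt1, Kdr and Flt4 lie at places 19, 20 and 22, and Ror2 and Kdr have wide ranges.

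The VEGF receptors stood well down this order. Kdr (ENSMUSG00000062960, GRCm38 chromosome 5, 75932827 to 75978458), the main signaling receptor of VEGF-A, had 55, 85 and 198 counts. It was at 1.14, 2.00 and 4.57 TPM, a ratio of 4.11 with replicate 3 highest, and it was the 20th of the 58 receptors. Flt1, which binds VEGF-A more tightly but signals less, was even at 2.96, 2.89 and 3.39 TPM. The co-receptor Nrp2 was higher than all of them at 47.2, 42.5 and 34.6 TPM, and Nrp1 was at 4.29, 6.99 and 5.83 TPM. Axl was 84.4, 52.7 and 21.8 times as high as Kdr in the 3 tumors. The angiopoietin receptor Tek was at 6.60, 8.72 and 16.9 TPM, below Tie1 in every tumor.

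Ligands of these receptors were present in the same lysates. Vegfa, the main ligand of Kdr and Flt1, was at 209, 103 and 211 TPM, lowest in replicate 2. Vegfb was at 20.7, 15.0 and 17.3 TPM, whereas Vegfc, the ligand of Flt4, was at 0.612, 2.96 and 7.99 TPM. Placental growth factor (Pgf) was under 1 TPM in every tumor. Gas6, the ligand of Axl, was at 27.0, 50.1 and 44.5 TPM, lowest in replicate 1. Kitl, the ligand of Kit, was at 40.8, 18.1 and 9.90 TPM. Its receptor Kit was at 0.610, 0.502 and 3.32 TPM, so the ligand was highest in replicate 1 and the receptor in replicate 3.

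Genes of the RAS to ERK cascade were high and even. Hras (ENSMUSG00000025499, GRCm38 chromosome 7, 141189105 to 141194004) was at 524, 410 and 493 TPM (476 ± 58.9, SD, n = 3). It was 5.32 ± 0.862 times as high as Nras (SD, n = 3). Whether its reads came from the mouse gene or from the introduced H-ras was not analysed here. The kinase gene Mapk3, which encodes ERK1, was at 206, 208 and 200 TPM. Map2k1, which encodes MEK1, was at 146, 125 and 177 TPM, and was 5.22 ± 0.727 times as high as its paralog Map2k2 (SD, n = 3). All 19 genes of the cascade passed the filter, and 1 (5.26%, against 13.0% of all genes) was past a ratio of 2, namely the adaptor Shc1 at 72.8, 97.8 and 155 TPM.

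Genes that ERK induces were present too. The feedback inhibitors Spry2 (230, 199 and 250 TPM) and Spred1 (179, 132 and 129 TPM) were the highest of them. The phosphatases Dusp5 (44.6, 48.4 and 82.5 TPM) and Dusp6 (33.5, 31.1 and 25.7 TPM), the ETS factors Etv4 and Etv5 and the early gene Egr1 (42.8, 40.4 and 40.5 TPM) were also detected. Of 20 genes, 19 passed the filter, and 3 (15.8%) were past 2, near the 13.0% of all genes, which were Dusp4, Ier3 and Etv1. Cell cycle and DNA replication genes summed to 1283, 1304 and 1159 TPM, and 0 of 29 tested were past 2, against 13.0% of all genes. Top2a, the topoisomerase of dividing cells, was at 281, 302 and 253 TPM, and the helicase subunit Mcm4, at 125, 119 and 115 TPM, was 1 of the 10 most even genes above 100 TPM.

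The extracellular matrix differed widely between the 3 tumors. Matrix falls into fibrillar collagens, which build fibers, basement membrane proteins, which lie under vessels and epithelia, and glycoproteins that link cells to both. The 11 fibrillar chains summed to 648, 2226 and 6121 TPM, and they took 0.224%, 0.749% and 2.07% of the counts. Of the 8 that passed the filter, 8 were past a ratio of 2 and highest in replicate 3, against 5.20% of all genes.

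Col1a1 (ENSMUSG00000001506, GRCm38 chromosome 11, 94936224 to 94953042), the alpha-1 chain of type I collagen, was at 503, 1840 and 5064 TPM, a ratio of 10.7. Its partner chain Col1a2 was at 65.7, 201 and 616 TPM, and Col3a1 at 31.6, 82.6 and 235 TPM. These 3 chains kept their proportions, since Col1a1 was 8.35 ± 0.764 times as high as Col1a2 and 19.9 ± 3.47 times as high as Col3a1 (SD, n = 3). Col1a1 was the highest of 76 matrix genes by its mean.

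Of 42 other matrix glycoproteins and proteoglycans, 36 passed the filter and 29 (80.6%, against 13.0% of all genes) were past 2. Replicate 3 was the highest for 26 of those (5.20% of all genes), and 25 were both lowest in replicate 1 and highest in replicate 3, as Col1a1 was. Sparc, a collagen-binding protein, was at 248, 394 and 767 TPM. The elastic fiber gene Fbn1 was at 34.6, 111 and 168 TPM and the adhesion-modulating Tnc at 30.9, 129 and 140 TPM, both lowest in replicate 1. Fn1, the fibronectin that links integrins to fibers, was even at 537, 445 and 586 TPM, and so was Col6a3 at 68.6, 77.1 and 71.3 TPM. Spp1 went another way, at 49.4, 84.8 and 26.4 TPM.

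**Figure D4:**
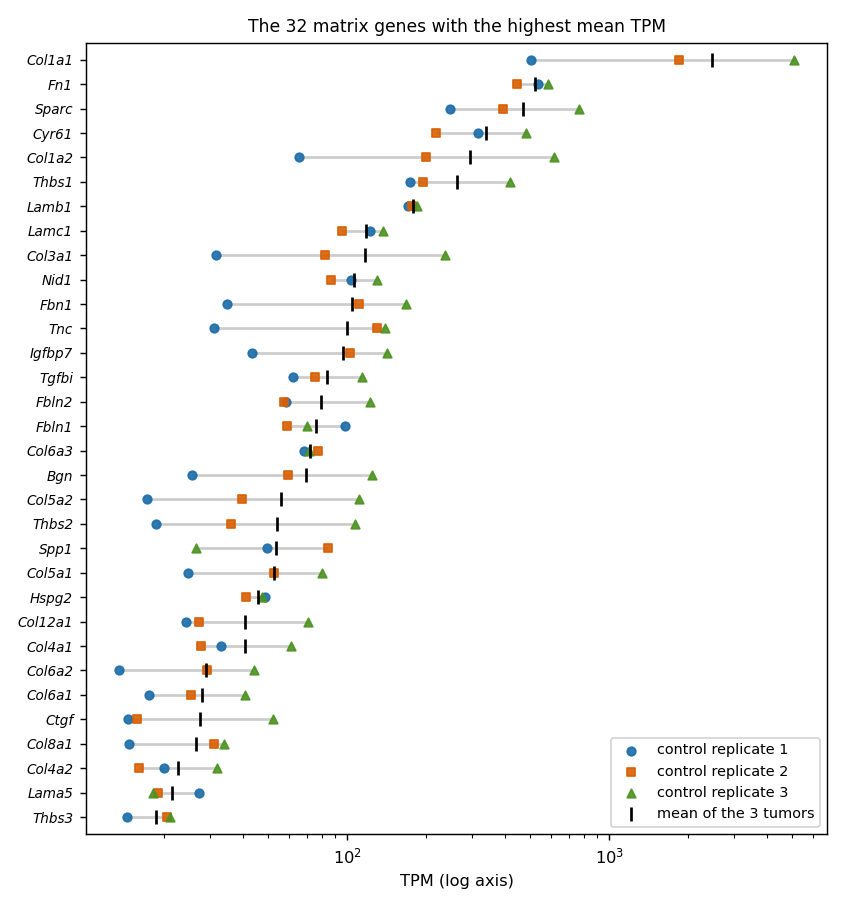
TPM (log axis) of the 32 matrix genes with the highest mean level, with 1 point per vehicle tumor, a black tick at the mean and a grey line over the range. Col1a1, Col1a2 and Col3a1 are lowest in replicate 1 and highest in replicate 3, with ratios of 10.7, 9.95 and 7.89, while Fn1, Lamb1 and Col6a3 hold within narrow ranges.

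The sum of the basement membrane genes was 561, 504 and 675 TPM. Of 14 that passed the filter 6 (42.9%, against 13.0% of all genes) were past 2, while Lamb1 and Hspg2 had ratios of 1.15 and 1.17. The laminin chain Lamb1 was at 171, 177 and 185 TPM, Lamc1 at 122, 95.5 and 137 TPM and the laminin-binding Nid1 at 103, 86.8 and 130 TPM. The endothelial laminin chain Lama4 had the widest range of the list, at 2.90, 7.13 and 21.1 TPM. Collagen IV, encoded by Col4a1 (32.9, 27.6 and 61.2 TPM) and Col4a2 (19.96, 16.0 and 31.7 TPM), was past 2 at ratios of 2.25 and 2.01. These genes on opposite strands overlap only from 11312805 to 11312826 of chromosome 8, and reads of that short stretch cannot be told apart without strand.

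Enzymes that work on matrix showed both patterns. The collagen chaperone Serpinh1 (169, 168 and 306 TPM) and the hydroxylase subunit P4hb (135, 151 and 165 TPM) were high in all tumors. The crosslinking enzyme Lox was at 5.49, 19.8 and 52.1 TPM and Loxl1 at 5.51, 15.5 and 36.8 TPM, with the same order of tumors as Col1a1. The sheddase Adam10 was at 328, 418 and 341 TPM and the membrane metalloprotease Mmp14 at 109, 141 and 154 TPM, while Mmp2, the gelatinase it activates, was at 21.7, 83.0 and 189.8 TPM. The integrin chain Itgb1, the shared subunit of many matrix receptors, was at 287, 380 and 490 TPM, and its fibronectin partner Itga5 at 125, 135 and 160 TPM. Among protease inhibitors Timp2 was even at 208, 240.2 and 182 TPM. Of 16 integrin genes that passed the filter, 3 (18.8%, against 13.0% of all genes) were past 2, among them the collagen receptor chain Itga11 at 0.292, 1.95 and 5.84 TPM.

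The sum of 13 fibroblast markers other than collagens ran from 72.8 in replicate 1 to 96.8 and 99.9 TPM in replicates 2 and 3. Much of it came from Prrx1, a factor of mesenchyme, at 36.2, 48.6 and 41.0 TPM, and from Pcolce. Of the 7 that passed the filter, 3 (42.9%, against 13.0% of all genes) were past 2 and highest in replicate 3, namely Dpt (0.544, 2.47 and 7.37 TPM), Fap (1.95, 3.57 and 6.32 TPM) and Dcn. The proteoglycan genes Dcn (0.353, 0.693 and 2.21 TPM) and Lum (0.230, 0.435 and 1.70 TPM), both usually abundant in fibroblasts, were near the floor, and Pdgfra was at 3.42, 2.44 and 3.47 TPM. Contractile markers of smooth muscle, pericytes and activated fibroblasts were wider. Of 8 that passed the filter, 7 (87.5%, against 13.0% of all genes) were past 2. Replicate 3 was highest for 5 of them and replicate 2 for 2 (5.20% and 3.59% of all genes tested). The smooth muscle actin Acta2 was at 51.1, 156 and 439 TPM and Tagln at 3.30, 8.57 and 27.1 TPM, both ordered as Col1a1 was, while the smooth muscle myosin Myh11 stayed under 1.2 TPM. Des (13.5, 153 and 6.71 TPM), also on the skeletal muscle list, and Rgs5 (1.28, 6.18 and 5.77 TPM) were highest in replicate 2.

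Markers of muscle, skin and red cells held the largest differences between tumors. Past a ratio of 10 were 128 genes, of which 35 were highest in replicate 1, 62 in replicate 2 and 31 in replicate 3. Each tumor had its own marker list at the top.

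Replicate 2 carried skeletal muscle RNA. The 20 muscle markers summed to 391, 12260 and 16.6 TPM and took 2.14% of the counts of replicate 2, and 16 of the 17 that passed the filter were past 2 and highest there, against 3.59% of all genes. Some, such as Myl1 at 0.0904, 5.03 and 0 TPM, passed the filter only through replicate 2. This count was thus partly set by the filter and is no test. The fast myosin Myh4 was at 3.15, 3945 and 0.692 TPM and the muscle actin Acta1 at 247, 5931 and 3.80 TPM. The calcium pump Atp2a1 was at 7.06, 487 and 0.539 TPM. Replicate 1 was intermediate for these genes, and it had more Myh2, a myosin of another fast fiber type, at 29.5 against 5.25 and 0.0292 TPM. Myoglobin (Mb) had 0 counts and the slow myosin Myh7 was under 0.1 TPM in each tumor. Rabep2, at 2.32, 80.3 and 1.21 TPM, overlaps Atp2a1 on the other strand, so its reads cannot be told apart from those of the pump.

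Replicate 1 carried keratinocyte RNA. Over 20 markers the sums were 889, 53.3 and 26.3 TPM, and 12 of the 13 that passed the filter were past 2 and highest in replicate 1, against 4.19% of all genes. Some, such as Krt10, passed the filter only through replicate 1, so this count too was partly set by the filter. Krt14 was at 333, 2.06 and 1.18 TPM and its basal layer partner Krt5 at 254, 1.45 and 0.284 TPM. Krt10, of the upper layers, was at 43.8, 0.101 and 0.394 TPM, and the cornified envelope gene Lce1a1 at 42.5, 0 and 0 TPM. Krt14, Krt16 and Krt17, like Krt6a and Krt6b, are near-identical in places, and their split is uncertain. Among the 20 markers Ivl went another way, at 8.19, 37.0 and 13.5 TPM.

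Replicate 3 carried red cell RNA. Globin and other erythroid genes summed to 767, 203 and 4957 TPM, with all 6 that passed the filter past 2 and highest in replicate 3, against 5.20% of all genes. Hbb-bs, an adult beta globin, was at 493, 137 and 3108 TPM, and the alpha globin Hba-a2 at 189.9, 36.7 and 1232 TPM. These globins have near-identical copies in Hbb-bt and Hba-a1, and the split between copies is uncertain. The haem synthesis enzyme of red cells, Alas2, was at 1.95, 1.77 and 8.23 TPM.

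**Figure D5:**
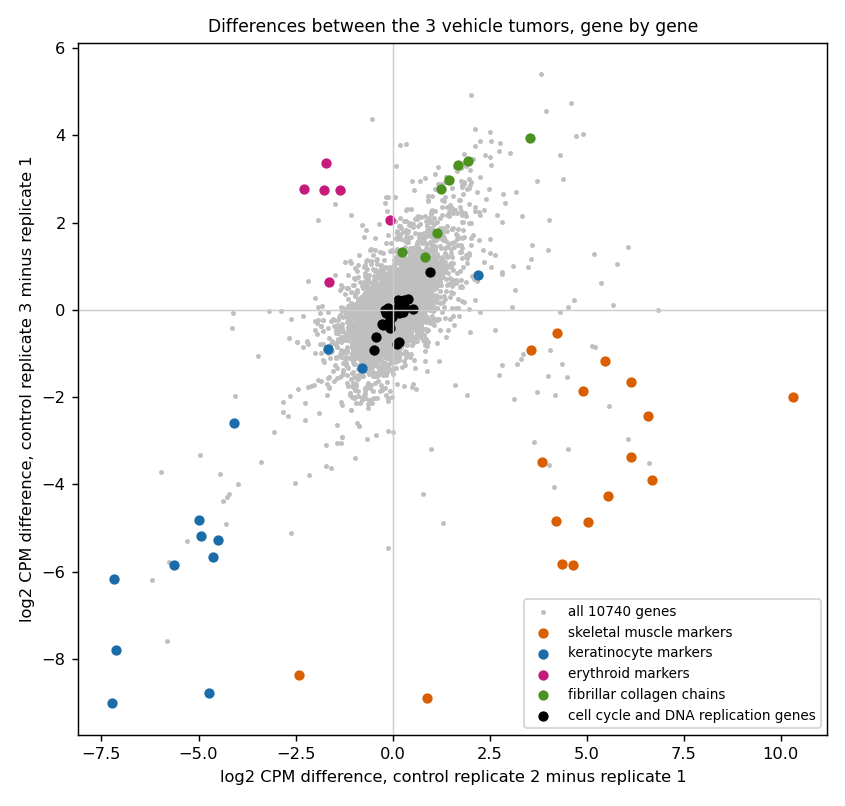
Difference in log2 CPM of replicate 2 from replicate 1 (horizontal) and of replicate 3 from replicate 1 (vertical) for 10740 genes, with 5 gene lists in colour. Skeletal muscle markers lie at the lower right, keratinocyte markers at the lower left and erythroid markers above the origin to the left, fibrillar collagens lie at the upper right, and cell cycle genes stay near the origin.

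Some of the genes that differed most between tumors had the letters of a TATA box before their start. The TATA box is a promoter element a short way upstream of the start site that many tissue-specific genes carry. The promoter sequences of RefSeq for GRCm38.p6 were searched for the letters TATAAA on the strand of the gene, between 40 and 19 bases before the start. The letters were found for 632 of 27025 genes (2.34%). Of the genes tested for spread with a promoter in the table, they were found in 75 of 6657 (1.13%) with a ratio under 2, in 28 of 778 (3.60%) with a ratio of at least 2, in 13 of 193 (6.74%) with a ratio of at least 4 and in 8 of 81 (9.88%) with a ratio of at least 10. On either strand the shares were 2.89% of all promoters, 1.37% under a ratio of 2 and 7.77% from 4 up. A match of letters is not a binding site, and its absence says only that the letters are not in the window. The 60 bases before the start are given for Myh4 and Myh1 (muscle), Krt10 (keratinocyte) and Hbb-bt (red cell), with the TATAAA letters in capitals, with those of the endothelial and receptor genes Tie1, Kdr, Eng and Axl, in whose windows these letters do not occur. These 8 were picked as examples and do not stand for their groups. The letters were in the windows of 2 of 46 endothelial genes tested (4.35%), and not in those of Krt14, Krt5, Hbb-bs and Hba-a2, which also differed widely between tumors. The windows of Krt14, Hbb-bs and Hbb-bt lie inside the gene coordinates of the deposited table. For these the RefSeq start is not the start of that table, before which the letters were not searched.
Myh4, chr11:67237752-67237811, plus strand: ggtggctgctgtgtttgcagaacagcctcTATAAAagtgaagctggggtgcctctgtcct
Myh1, chr11:67200042-67200101, plus strand: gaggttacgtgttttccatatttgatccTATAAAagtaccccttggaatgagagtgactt
Krt10, chr11:99389365-99389424, minus strand: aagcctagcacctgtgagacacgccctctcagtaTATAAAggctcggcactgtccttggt
Hbb-bt, chr7:103813924-103813983, minus strand: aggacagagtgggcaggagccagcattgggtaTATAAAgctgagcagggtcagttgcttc
Tie1, chr4:118489850-118489909, minus strand: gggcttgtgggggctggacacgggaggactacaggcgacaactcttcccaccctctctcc
Kdr, chr5:75978456-75978515, minus strand: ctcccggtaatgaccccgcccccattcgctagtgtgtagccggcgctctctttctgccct
Eng, chr2:32646535-32646594, plus strand: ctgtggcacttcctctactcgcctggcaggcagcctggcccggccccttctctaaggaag
Axl, chr7:25788734-25788793, minus strand: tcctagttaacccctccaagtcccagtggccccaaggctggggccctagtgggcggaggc

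Immune cells were seen mainly through macrophage genes. The 20 macrophage markers summed to 237, 403 and 311 TPM, a sum highest in replicate 2. Of 16 that passed the filter, 7 (43.8%, against 13.0% of all genes) were past 2. Of these 7, 4 were highest in replicate 2, 2 in replicate 3 and 1 in replicate 1 (3.59%, 5.20% and 4.19% of all genes tested). Cd163, at 5.08, 3.94 and 1.83 TPM, was highest in replicate 1, and Apoe, at 9.55, 24.3 and 32.2 TPM, in replicate 3. The mannose receptor Mrc1 was at 100.4, 156 and 101 TPM, the lysozyme gene Lyz2 at 25.5, 61.6 and 45.1 TPM and the pan-macrophage marker Adgre1 at 3.12, 5.05 and 3.21 TPM. Antigen-presentation genes were detected as well, with Cd74 at 88.7, 52.1 and 70.1 TPM and H2-Aa at 65.3, 50.9 and 71.2 TPM. These belong to the list of dendritic cell markers, of which 0 of 5 tested were past 2, against 13.0% of all genes. Other members were absent or near the floor. Clec9a and Cd209a had 0 counts, Flt3 was at 0.121, 0.138 and 0.0674 TPM and Zbtb46 at 0.330, 0.125 and 0.122 TPM. The summed level of this list was lowest in replicate 2, where the sum of the macrophage markers was highest. The 7 mast cell markers summed to 6.89, 2.21 and 3.73 TPM, with the tryptase gene Tpsb2 at 3.64, 1.38 and 0 TPM. Kit, the only 1 of the 7 that passed the filter, went the other way and was highest in replicate 3, at 0.610, 0.502 and 3.32 TPM. Another mast cell tryptase, Tpsab1, was 1 of the 10 genes highest in replicate 1 by the widest gaps, at 18.4, 1.53 and 1.39 TPM.

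Glycolysis and hypoxia genes summed to 5835, 4439 and 6135 TPM over 28 genes, or 1.11%, 0.870% and 1.18% of the counts. Of 22 that passed the filter, 5 (22.7%, against 13.0% of all genes) were past 2, and all 5 were lowest in replicate 2, as were 3.47% of all genes tested. These were Vegfa, the glucose transporter Slc2a1 (248.6, 107 and 277 TPM), the HIF prolyl hydroxylase Egln3 (365, 132 and 294 TPM), the mitophagy gene Bnip3 (74.7, 33.8 and 66.2 TPM) and Ndrg1 (12.4, 3.33 and 12.3 TPM). Glycolytic enzymes without such differences included Gapdh at 654, 514 and 701 TPM, Aldoa at 614, 543 and 622 TPM and Ldha at 53.1, 51.1 and 54.4 TPM. Skeletal muscle took 2.14% of the counts of replicate 2, and its part in these lower levels was not tested.

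The 10 protein coding genes lowest in replicate 1 by the widest gaps included the collagen-associated Cthrc1 (2.59, 18.4 and 37.9 TPM), the enteric smooth muscle actin Actg2 (0.361, 8.21 and 24.9 TPM), Thbs4 (0.627, 14.1 and 8.23 TPM) and the WNT5A receptor Ror2 (2.03, 7.98 and 14.6 TPM). Genes highest in replicate 3, beside globins, were the WNT modulator Sfrp2 (8.79, 19.1 and 81.3 TPM), the periostin gene Postn (3.49, 4.65 and 16.6 TPM), the activin subunit Inhbb (1.94, 1.70 and 11.5 TPM) and the simple-epithelium keratin Krt19 (40.8, 30.8 and 152 TPM). At the other end, the clathrin heavy chain Cltc at 425, 412 and 404 TPM and its adaptor Ap2b1 at 119, 115 and 112 TPM were the most even genes above 100 TPM, with ratios of 1.01.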

How the data were processed

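Whole-tumor RNA of 3 vehicle-treated SVR tumors was captured with the TruSeq RNA Exome kit and sequenced as paired reads of 50 bases, 12 libraries on 1 lane. The authors used bcl2fastq 1.8.4 for demultiplexing, STAR 2.7.1a (2-pass) for alignment against GRCm38 and featureCounts 1.6.0 for counting, per the methods and the submitters' processing notes, and the deposited values are raw counts per gene. No source used here gives the annotation release, the strand setting or the rule for multiply mapped reads. Samples were grouped by their treatment label, and the 9 drug-treated tumors were not used here.

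TPM was computed in Python 3.11.15 from the counts and the gene length in the deposited table, which equals the union exon length of GENCODE M21 for 52697 of 54232 identifiers. TMM factors (1.04, 0.990 and 0.973), log2 CPM with a prior count of 2 and the biological coefficient of variation came from edgeR 4.0.16 in R 4.3.3. The spread measures were tested on simulated data. No test was run, since nothing was compared between groups and a single group of 3 tumors offers none. The labels do not say whether the 3 samples came from separate mice.

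Genes were named by a rule: the 30 highest by TPM, up to 6 members of each list by TPM, receptors from 5 TPM up, members at 0, the 10 highest and 10 lowest in each tumor and the 10 most even above 100 TPM. Other genes named were chosen after their values were seen. The tumors and the gene lists were chosen with earlier results of these data known. A name with more than 1 identifier took the one with more counts. Overlaps of genes came from GENCODE M21, and promoters from RefSeq. Some members of the lists are not reported here by name.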

Additional observations from a re-analysis of the deposited data

How the results depend on the processing

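The 10519 genes at 1 TPM in all 3 tumors became 6750 at 5 TPM. TPM with only protein coding genes in the denominator gave mean sums of 882 for endothelial surface genes, 931 for receptor tyrosine kinases, 494 for macrophage markers and 1950 for cell cycle genes, against 565, 596, 317 and 1249. TMM-scaled RPKM, another unit, gave 261, 275, 146 and 574. Axl changed places with Fgfr1 (places 2 and 1) without the length and without replicate 2, over tumors left out in turn the places ran from 1 to 2 for both, and Tie1 fell from place 3 to 5 without the length and ran from 3 to 4. Kdr, at place 20, was at place 21 without the length and ran from 17 to 24 with 1 tumor left out. Genes past the ratio, 1394 (13.0%), numbered 5950 of 22310 (26.7%) without a filter and 403 of 5502 (7.32%) at a mean of 10 TPM. They were 3499 (32.6%) at a ratio of 1.5, 349 (3.25%) at 4, and 695 to 876 (6.47% to 8.16%) with 1 tumor left out. In the same order of settings, the 28 endothelial genes of 68 tested were 45, 10, 44, 7 and 11 to 22. Without a filter and at 10 TPM the number of endothelial genes tested changes too, so those counts are not out of 68. The 21 highest in replicate 3 were 7 at 10 TPM and 7 at a ratio of 4, with no share of all genes computed for these. Library totals, DESeq2 1.42.0 size factors and a prior count of 0.5 left these counts within 1.5 times. Outlier checks were not made on 3 samples. No paired analysis was possible because 1 group was described and no result came from a test. The fibroblast list without collagens, chosen after seeing the data, lowered its mean sum from 2969 to 89.9 TPM. At this depth a gene with 0 counts may still be expressed at up to 0.294 CPM, and low genes such as Pecam1, with 31 to 54 counts, are less exact than high ones.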

Other observations

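Lymphocytes, NK cells, neutrophils, adipocytes and pancreatic cells were scarcely detected by the markers listed for them. Of 12 T cell markers, 6 had 0 counts, namely Cd2, Cd3d, Cd3g, Cd5, Cd8b1 and Trac, and Cd3e, Cd4 and Cd8a were under 0.25 TPM. Foxp3, the factor of regulatory T cells, was listed at 5.03, 6.19 and 4.65 TPM, but its exons overlap Flicr on the same strand and Ccdc22 on the other, so these reads are uncertain. Lck, at 2.56, 2.54 and 2.56 TPM, overlaps Mir8119. Of 9 NK cell markers 7 had 0 counts, and of 12 neutrophil markers 4, with S100a8 and S100a9 under 1.1 TPM in every tumor. Adipocyte markers summed to 8.30, 6.67 and 9.57 TPM, with Adipoq, Lep and Retn at 0 counts. The line was derived from islet endothelium, and of 12 pancreatic islet and acinar markers 10 had 0 counts, including Ins1, Ins2 and Gcg.

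Among genes of the p53 and RB pathways, the cyclin D partner Cdk4 was the highest at 375, 332 and 342 TPM, against 10.1, 5.42 and 5.49 TPM for Cdk6. The tumor suppressor Trp53 was at 11.9, 12.2 and 9.11 TPM, and its target Cdkn1a was low at 1.10, 1.53 and 0.937 TPM. Ccng1, another target, was at 8.11, 21.04 and 11.6 TPM, and 3 of the 19 genes tested were past a ratio of 2 (15.8%, near the 13.0% of all genes), all highest in replicate 2. The heat shock gene Hspa1b, at 625, 151 and 495 TPM, and the metallothionein gene Mt2, at 358, 97.8 and 286 TPM, were lowest in replicate 2. Xist, the RNA of the inactive X chromosome, was at 9.42, 5.24 and 4.04 TPM, and Ddx3y, Eif2s3y, Kdm5d and Uty had 0 counts.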
